A study of Mus musculus with 2 samples.

Results

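The 10 genes described here encode the enzymes that place N6-methyladenosine (m6A) on RNA and those that remove it. They were chosen by name, and all 10 were found, each as 1 row, among the 55363 genes of the data. Of these 10, Mettl14 was the lowest in the d/d uterus, at 3.21 FPKM against 13.6 in f/f, and Rbm15 had the highest d/d over f/f ratio, at 13.6 FPKM against 5.51. The data are RNA sequencing of whole uterus from female mice on gestational day 4. The females were 6 to 8 weeks old and had been mated with fertile males. One group carried the Mettl14 genotype written f/f and the other the genotype written d/d, with 1 library each. Written this way, f/f usually denotes floxed alleles and d/d alleles from which the floxed part has been removed. The Cre line behind the deletion, the cells it acts in, the exons it removes and the number of animals per library are not given in these sources. With 1 library per genotype there is no replicate error and no test, so each difference below is one between these libraries.

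Adenosine methylation at N6 is the most abundant internal mark of messenger RNA and bears on its splicing, export, translation and decay. METTL3 carries the active site, and METTL14 is its structural partner, which binds RNA and holds the catalytic protein in its working shape. Around this pair sits a regulatory set in which WTAP anchors the complex in nuclear speckles and VIRMA acts as a large scaffold. RBM15 and RBM15B bring the complex to RNA, ZC3H13 keeps it in the nucleus, and CBLL1, also called HAKAI, is a ubiquitin ligase of the same assembly. FTO and ALKBH5 are dioxygenases that take the methyl group off. In the uterus the fourth day of gestation is when the lining turns receptive to the embryo.

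Rbm15 and Rbm15b, related RNA-binding genes, had the highest d/d over f/f ratios of the 10. Their promoters, from the RefSeq table on GRCm38.p6, are shown because these ratios lie farthest above 0. Each window runs from 250 bases before to 50 bases after the annotated start and is written 5′ to 3′ on the gene's strand. Capitals mark 3 textbook promoter motifs on either strand. The first is CCAAT. The GC box is GGGCGG. The E-box, bound by many basic helix-loop-helix factors, is CACGTG. The Rbm15 window is chr3:107333240-107333539 and the Rbm15b window is chr9:106887026-106887325, both on the minus strand. In the GENCODE annotation used for gene positions here, Rbm15 begins at 107333673 and Rbm15b at 106887428, upstream of the RefSeq starts. Both windows thus lie inside the GENCODE gene spans, and that of Rbm15b lies inside its single exon. Which start is used in these libraries was not tested.
Rbm15: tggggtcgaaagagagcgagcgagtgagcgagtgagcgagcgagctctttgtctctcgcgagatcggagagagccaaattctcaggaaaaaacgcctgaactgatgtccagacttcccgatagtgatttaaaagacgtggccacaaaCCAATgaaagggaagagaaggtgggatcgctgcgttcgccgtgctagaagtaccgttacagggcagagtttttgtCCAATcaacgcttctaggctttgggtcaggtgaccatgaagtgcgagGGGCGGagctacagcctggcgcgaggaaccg
Rbm15b: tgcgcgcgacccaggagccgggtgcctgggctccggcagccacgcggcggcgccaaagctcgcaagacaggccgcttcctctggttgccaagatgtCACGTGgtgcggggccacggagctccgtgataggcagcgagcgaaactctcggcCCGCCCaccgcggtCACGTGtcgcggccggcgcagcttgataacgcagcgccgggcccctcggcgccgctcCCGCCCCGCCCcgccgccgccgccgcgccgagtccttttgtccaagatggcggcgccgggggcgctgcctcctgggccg
The Rbm15 window held 2 CCAAT matches and 1 GC box, and the Rbm15b window held 3 GC boxes, 2 of which overlap, and 2 E-boxes. Of these motifs only the GC box was in both windows, and 35.7% of all 32851 promoter windows of this length held it. CCAAT was in 37.4% of them and the E-box in 7.15%. Windows were listed for 8 of the 10 genes, 11 in all. Mettl14 and Virma were the others. The member windows held between 17 and 48 CpG dinucleotides, against a median of 7 over all windows, and Rbm15b had 46. Neither TATAAA, present in 13.6% of all windows, nor the full estrogen response element palindrome, present in 0.0700%, was found in the 11. The ETS factor core CCGGAA, in 14.9% of all windows, was in windows of Cbll1, Mettl3, Wtap and Zc3h13 and in neither sequence above.

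Mettl14 (ENSMUSG00000028114) was 13.6 FPKM for f/f against 3.21 for d/d. FPKM divides the fragments of a gene by its length and by the depth of its library, so levels of different genes can be set side by side. The d/d level was thus 23.5% of the f/f level. About 661 and 182 fragments stood behind the values, as estimated from depth and the shortest coding transcript of at least 1000 nt. Counting error alone puts the f/f over d/d ratio of 4.25 between 3.60 and 5.0 (95%). Its log2 ratio on FPKM + 1, with d/d on top, was -1.80. Of the 16263 genes that reached 1 FPKM in either library, 2.44% lay at or below it. In f/f Mettl14 stood above 50.8% of these genes, and in d/d above 20.5%. It moved from the seventh place of the 10 members to the last. These are gene-level values over 5 annotated transcripts, so the exons behind the remaining fragments are unknown. In whole tissue, fewer cells that express a gene and less RNA per cell cannot be told apart.

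Mettl3 (ENSMUSG00000022160, chromosome 14 from 52294841 to 52305128), the catalytic partner, was 19.7 in f/f and 14.7 FPKM in d/d, so that d/d held 74.5% of the f/f level, with a log2 ratio of -0.40. That difference is well short of the 2-fold used to call a gene higher or lower here, a log2 ratio of at least 1 in size. Of the annotated exon bases of Mettl3, 18.4% are shared with Tox4 on the opposite strand. Tox4 was 20.9 in f/f and 21.3 FPKM in d/d, and since the strandedness of the library is not given, the 2 genes may share fragments there. The core pair therefore went in the same direction by very different amounts. Within a library the comparison needs no scaling between libraries. Mettl14 stood at 0.691 of the Mettl3 level in f/f and at 0.218 in d/d, so Mettl3 was 1.45 times as abundant as its partner in the first and 4.58 times in the second.

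**Figure D1:**
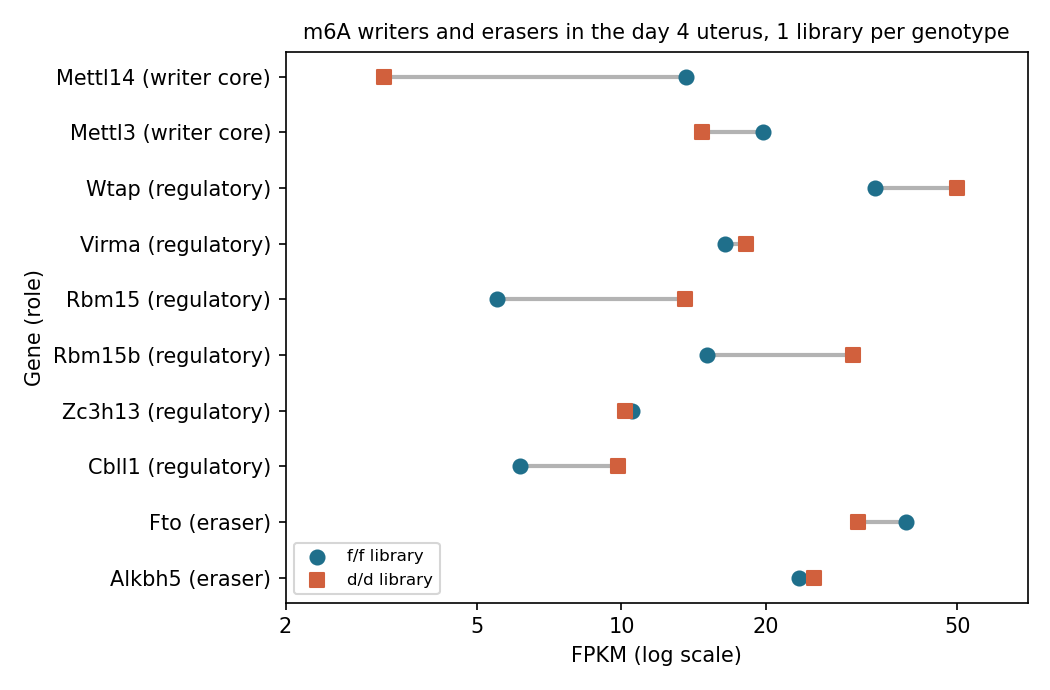
FPKM (log axis) of the 10 genes in the f/f library (circles) and the d/d library (squares), with a grey line joining the 2 values of a gene. Mettl14 has the longest line to the left, from 13.6 to 3.21, and Rbm15 the longest to the right, from 5.51 to 13.6.

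Of the 6 regulatory subunits, 1 passed the 2-fold rule, as higher, and 5 did not. Their median log2 ratio was 0.58. It was above 0 for 5 of them, against 49.2% of all genes measured, and their FPKM summed to 87.3 in f/f and 132 in d/d. Rbm15 was 5.51 in f/f and 13.6 FPKM in d/d, a ratio of 2.46 with a counting interval of 2.21 to 2.75, and a log2 ratio of 1.16. It was the lowest of the 10 genes in f/f, above only 28.7% of all genes, and stood near the middle, above 49.7%, in d/d. It is the one regulatory subunit past the 2-fold rule, which 10.2% of all genes passed as higher. With a pseudocount of 5 FPKM it missed the rule (log2 ratio 0.82).

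Rbm15b followed closely at 15.1 in f/f and 30.4 FPKM in d/d. The plain ratio of 2.01 had a counting interval of 1.91 to 2.13, and with 1 FPKM added the log2 ratio was 0.96, just short of the rule. It passed with a pseudocount of 0.1 FPKM (1.01) and when the libraries were scaled to 14 reference genes (1.04). Rbm15b is a single-exon gene of 6511 nt (chromosome 9 from 106880918 to 106887428) that lies wholly inside the span of Manf on the same strand, and it meets the end of Dcaf1 on the other strand. Manf, a secreted factor of the endoplasmic reticulum stress response, was 453 in f/f and 679 FPKM in d/d, 30.0 and 22.3 times the Rbm15b level. Dcaf1, a ubiquitin ligase substrate receptor, was 30.4 and 81.4 FPKM. Exon bases shared with Rbm15b number 14 for Manf and 75 for Dcaf1, of 6511. How the authors' estimate divided fragments among these genes was not tested, so the Rbm15b value is less certain than its fragment number would give. The level of Rbm15b was 2.74 times that of Rbm15 in f/f and 2.24 times in d/d.

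Wtap was the most abundant writer gene in both libraries, at 33.7 in f/f and 49.8 FPKM in d/d, a log2 ratio of 0.55. In d/d it was the highest of all 10 genes, above 81.5% of genes measured. Cbll1 was 6.16 in f/f and 9.83 FPKM in d/d, a log2 ratio of 0.60. With about 126 and 235 fragments it had the widest relative counting interval, 1.29 to 1.98 around a ratio of 1.60. These numbers rest on its shortest coding transcript, 1332 nt. On its longest, 3945 nt, they would be higher and the interval narrower. Neither gene reached 2-fold. Virma was 16.4 in f/f and 18.2 FPKM in d/d, and Zc3h13 was 10.5 and 10.2 FPKM. The log2 ratios of Virma and Zc3h13 were 0.14 and -0.04. For Zc3h13 the counting interval of the ratio, 0.897 to 1.05, included 1, and its sign turned (0.03) when the libraries were scaled to the reference genes.

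The erasers differed less between the libraries than 6 of the 8 writers. Fto, the most abundant of the 10 genes in f/f, was 39.1 FPKM there and 31.0 FPKM in d/d, or 79.3% of it, with a log2 ratio of -0.33. Alkbh5 was 23.4 in f/f and 25.1 FPKM in d/d, a log2 ratio of 0.10. The Fto level was 1.67 times that of Alkbh5 in f/f and 1.23 times in d/d. Neither eraser came near 2-fold in either direction.

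**Figure D2:**
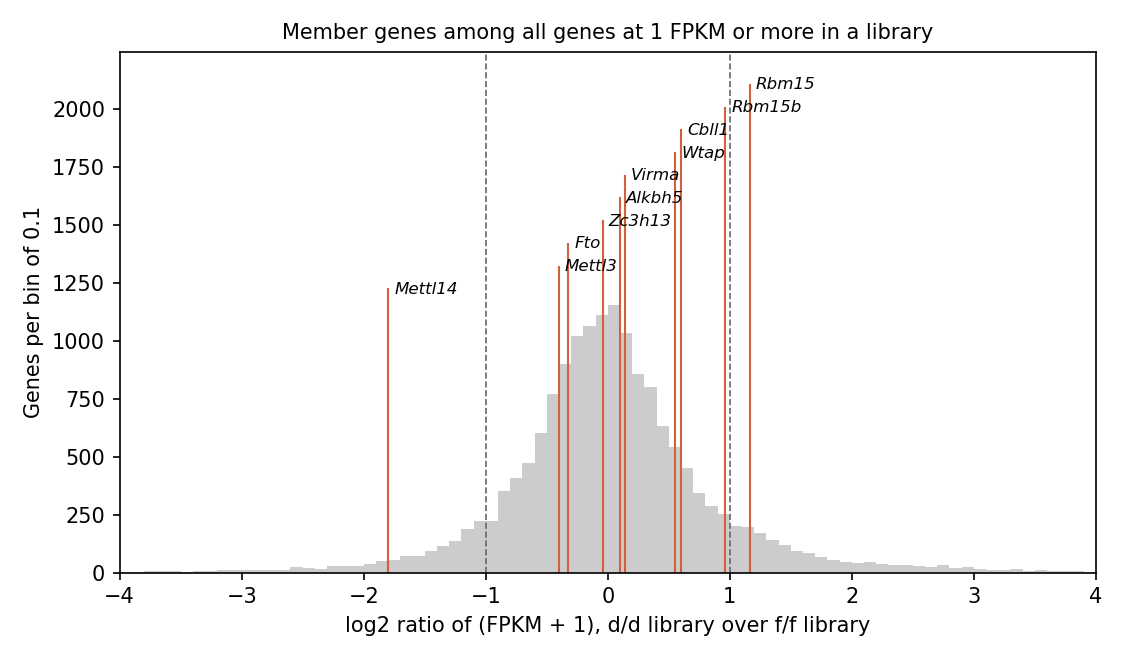
Grey bars count genes by log2 ratio of FPKM + 1, d/d over f/f, in bins of 0.1, for genes that reached 1 FPKM in either library (ratios beyond 4 in size lie off the axis). Red lines mark the 10 members at heights chosen for legibility, and dashed lines mark a log2 ratio of 1 in size. Mettl14 at -1.80 and Rbm15 at 1.16 lie outside the dashed lines and Rbm15b at 0.96 just inside.

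By the 2-fold rule 1 member was higher (Rbm15), 1 was lower (Mettl14) and 8 were neither, so that 2 of 10 passed. Over all 16263 genes 18.4% passed, 10.2% as higher and 8.28% as lower. The share of members is near this background and is not a result about the set. The median log2 ratio was 0.12 over the 10 members and -0.01 over all genes, with quartiles of -0.41 and 0.41. On plain FPKM, 12.7% of genes were higher in d/d by 2-fold or more, Rbm15 and Rbm15b among them. All 10 members were at 1 FPKM or more in both libraries.

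The order of the levels shifted with these differences. In f/f the order from high to low was Fto, Wtap, Alkbh5, Mettl3, Virma, Rbm15b, Mettl14, Zc3h13, Cbll1 and Rbm15, spanning 7.10-fold. The d/d order was Wtap, Fto, Rbm15b, Alkbh5, Virma, Mettl3, Rbm15, Zc3h13, Cbll1 and Mettl14, spanning 15.5-fold. With 1 library each, it cannot be said which neighbours in either order differ beyond the spread between animals. Mettl14 made up 11.3% of the summed FPKM of the 8 writer genes in f/f and 2.14% in d/d, while that sum was 121 in f/f and 150 FPKM in d/d.

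Set against Mettl3 in the same library, all of the regulatory genes and both erasers had higher ratios in d/d, and Mettl14 a lower one. Wtap stood at 1.71 times the Mettl3 level in f/f and 3.39 times in d/d. Rbm15 went from 0.279 to 0.924 of it, and Rbm15b from 0.766 to 2.07. For Cbll1 the values were 0.312 in f/f and 0.669 in d/d, for Virma 0.831 and 1.24, and for Zc3h13 0.533 and 0.692. Because all of these share the Mettl3 value as divisor, the lower Mettl3 level in d/d enters each of them. Among the erasers, Alkbh5 stood at 1.19 times Mettl3 in f/f and 1.71 times in d/d, a shift like that of Virma, and Fto at 1.98 and 2.11 times.

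**Figure D3:**
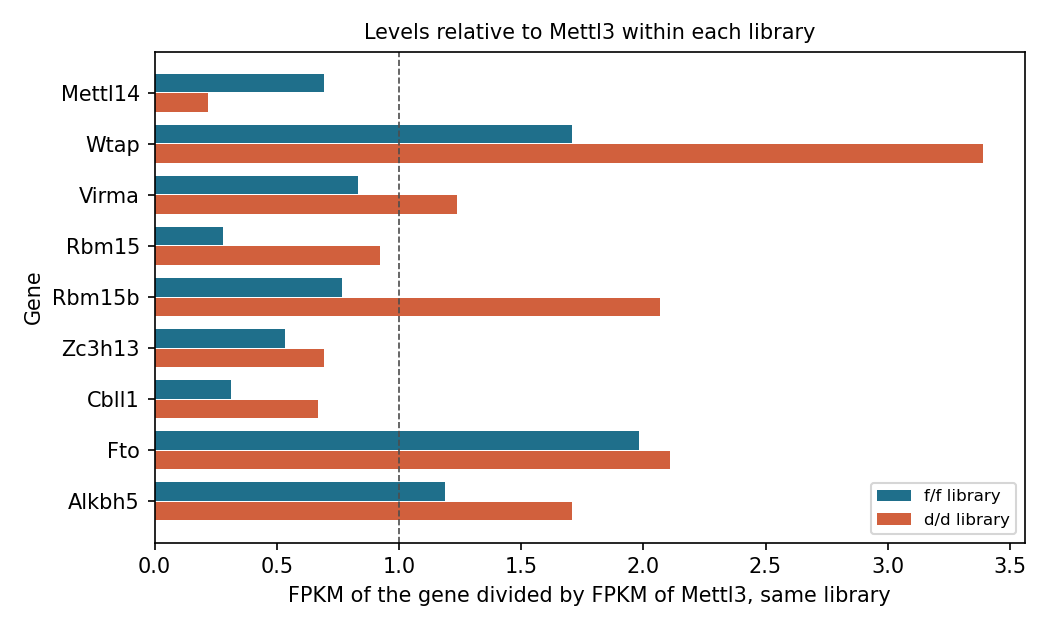
Bars give FPKM of each gene divided by FPKM of Mettl3 in the same library, for f/f (blue) and d/d (red), with the dashed line at the Mettl3 level. The Mettl14 bar goes from 0.691 in f/f to 0.218 in d/d, and the Wtap bar from 1.71 to 3.39.

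The transcripts of the 10 genes were also read for GGACT, the commonest form of the sequence in which the writer complex methylates the adenosine. Searched on the sense strand only, in the longest coding transcript of each gene, it occurred from 0.425 times per kb in Fto to 1.98 times per kb in Mettl3. The median over 13768 measured protein-coding genes was 1.05 per kb, and 6 of the 10 members were above it. Mettl14 had 5 matches and Rbm15 had 2, or 0.695 and 0.461 per kb, both below that median. A match is a stretch of letters and not a measured methylation site. Rbm15 and Rbm15b have 2 exons and 1 exon in these models, the fewest of the 10, whereas Virma has 25 and Zc3h13 has 19.

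Mettl14 lies on the minus strand of chromosome 3 (GRCm38) from 123368297 to 123386108. No annotated gene that is also in the data overlaps it. Its closest coding neighbour Sec24d, a gene of the secretory vesicle coat, ends 2655 bp away and was 53.6 in f/f and 47.0 FPKM in d/d. On the other side, 60804 bp away, Prss12, which encodes the secreted protease neurotrypsin, was 15.7 in f/f and 0.233 FPKM in d/d. So one neighbour was near its f/f level in d/d and the other was far lower. Rbm15 lies on the same chromosome from 107325421 to 107333673, and its neighbours Slc16a4, at 2.11 and 1.75 FPKM, and Kcnc4, under 1 FPKM in both libraries, did not share its ratio. The 3 coding genes closest to Mettl14 in level, out of 12506 with 1 FPKM or more in both libraries, were Klrk1 at 13.7 and 3.20 FPKM, Tshz3 at 13.8 and 3.41, and Col4a6 at 13.3 and 3.41. Klrk1 encodes a killer cell receptor, Tshz3 a zinc finger transcription factor and Col4a6 a basement membrane collagen chain. Their distances from Mettl14 on the log2(FPKM + 1) scale over the 2 libraries were 0.0039, 0.069 and 0.075.

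Other genes of the m6A pathway were taken from lists made for this report. The list of readers holds 14 genes whose proteins bind the mark or the RNA that carries it. Of these, 12 were measured at 1 FPKM or more in a library (median log2 ratio 0.12). Among them 2 were higher, 1 was lower and 9 were neither. That is 3 of 12, beside 18.4% of all genes. Ythdf2, which sends marked messages to decay, had a log2 ratio of 1.43, and its relative Ythdf1 had 1.05. The lower one was Rbmx, an RNA-binding protein gene with near copies elsewhere in the genome, at 26.9 in f/f and 7.45 FPKM in d/d. Igf2bp1 and Igf2bp3 were under 1 FPKM in both libraries.

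None of 6 genes of other N6-adenosine methyltransferases and their cofactors passed the rule (median -0.20, with 2 log2 ratios above 0 and 4 below). The most abundant, Pcif1, which methylates the cap-adjacent adenosine, was 36.6 in f/f and 42.1 FPKM in d/d, and Mettl16, which methylates the U6 small nuclear RNA, was 29.0 and 36.3 FPKM. Of 10 genes for supply and recycling of the methyl donor S-adenosylmethionine, 9 were measured and none passed (median -0.31). Of the 9 log2 ratios, 6 were below 0 and 3 above, those of the 2 genes named next among the 3. Mat2a, the enzyme that makes the donor in most tissues, was 63.7 in f/f and 92.9 FPKM in d/d, and Ahcyl2 was 59.4 and 75.9. Of 7 other AlkB family dioxygenases, none passed (median 0.10), with Alkbh6 at 24.7 and 18.5 FPKM and Alkbh7 at 18.8 and 19.3. In the list of 14 reference genes none passed, with a median of -0.09. The most abundant of them, Actb and B2m, had log2 ratios of 0.41 and -0.20. The ends of the list were Polr2a at -0.996 and Gusb at 0.96, as far from 0 as Rbm15b.

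The markers of the cell types that whole uterus holds differed between the same libraries, and their part in the values of the 10 genes was not tested. Over all genes measured, 10.2% passed the 2-fold rule as higher and 8.28% as lower. Of 10 epithelial markers 9 were higher in d/d, and their summed FPKM was 401 in f/f and 2359 in d/d. Of 7 gland markers 5 were lower, with sums of 2277 and 15.7 FPKM, and Prss28 and Spink1 were listed at 0 in d/d. Prss29, Spink1, Prap1 and Prss28 make up most of the f/f sum. Foxa2, at 5.11 in f/f and 3.56 FPKM in d/d, and Cxcl15 did not reach 2-fold, with log2 ratios of -0.42 and -0.58. Whether the d/d uterus held fewer glands was not tested. Of 10 stromal markers 6 were lower (sums of 4566 and 2826 FPKM, median log2 ratio -1.38). Pdgfra, Hoxa10, Hoxa11 and Hand2 were 3.70-, 5.59-, 4.78- and 5.03-fold lower in d/d, while the abundant Dcn, Col1a1 and Col1a2, with log2 ratios of -0.17, -0.29 and -0.13, make up most of the sums. Also lower were 2 of 8 smooth muscle markers (4855 and 3199) and 4 of 8 endothelial markers (381 and 185). The log2 ratio was above 0 for 2 of the smooth muscle markers and below 0 for all 8 endothelial markers. Of 7 macrophage markers 4 were higher (462 and 1192 FPKM). Of 8 T and NK cell markers 3 were higher and 4 lower (182 and 52.4 FPKM). The T cell genes Cd3e, Cd3g and Cd4 were 8.32-, 6.45- and 5.19-fold higher in d/d. The NK and cytotoxic cell genes Ncr1, Nkg7, Prf1 and Gzmb were 40.5-, 23.2-, 32.7- and 269-fold lower, and Cd8a was under 1 FPKM in both libraries. Of 6 fat cell markers 4 were higher (2.96 and 106 FPKM, of which Cfd gave 0.0867 and 66.6). Plin1, Lep and Cidec were listed at 0 in f/f, but Plin1 and Lep were also under 1 FPKM in d/d. Cidec was 4.69 FPKM in d/d. The remaining stromal markers, Vim, Nr2f2 and Pdgfrb, were 3.29-, 2.10- and 1.14-fold lower in d/d. On plain FPKM, Mettl14, 4.25-fold lower, differed by more than these, Pdgfra, Dcn, Col1a1 and Col1a2, and by less than Hoxa10, Hoxa11 and Hand2. On FPKM + 1 the order with Pdgfra turned, with log2 ratios of -1.80 for Mettl14 and -1.84 for Pdgfra. Any link between Mettl14 and the stromal markers was not tested.

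**Figure D4:**
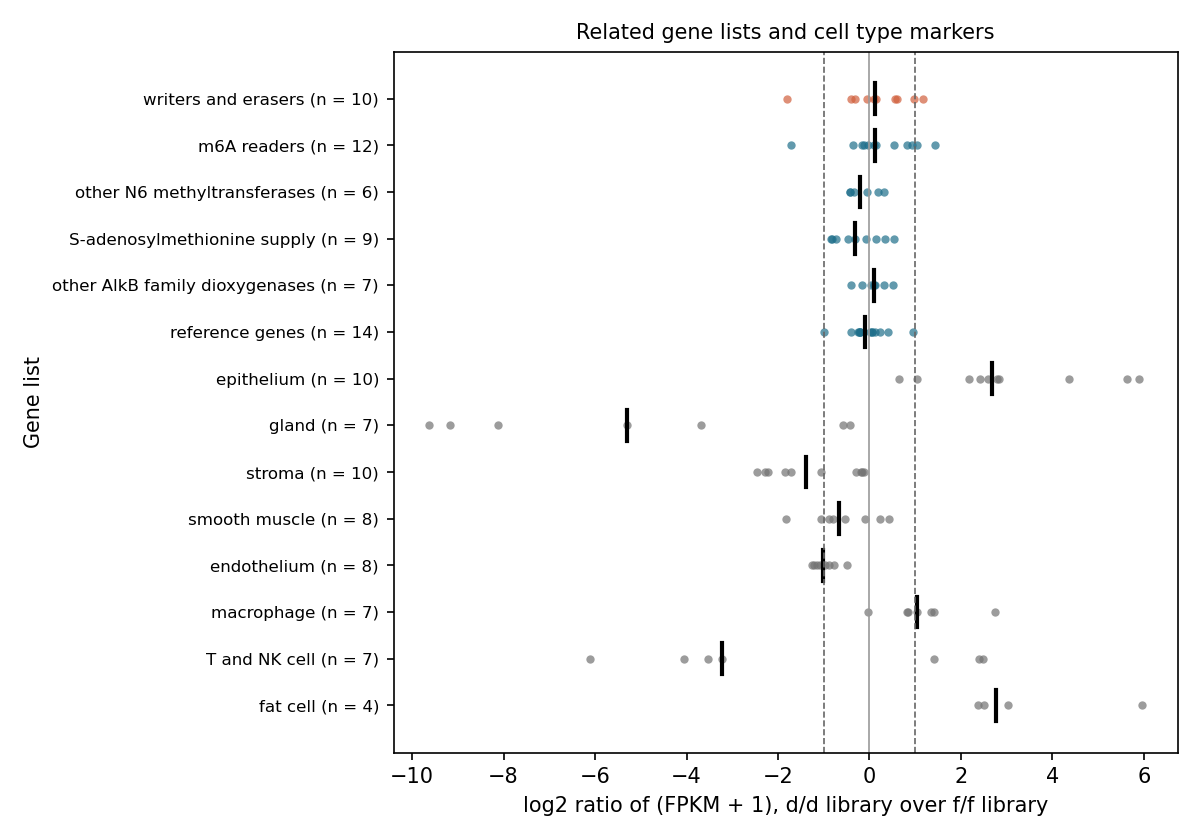
Each point is the log2 ratio of FPKM + 1, d/d over f/f, of a gene at 1 FPKM or more in a library, with 1 row per gene list and a black bar at its median. The writers and erasers and the related lists have medians between -0.31 and 0.12, with single genes from -1.80 (Mettl14) to 1.43 (Ythdf2). The epithelial markers have a median of 2.69 and the gland markers one of -5.29.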

How the data were processed

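Whole uterus of 2 genotypes was sequenced, 1 library each. The FPKM values were computed and deposited by the authors, and per the submitters' processing notes the tools were HISAT2 2.2.1 and Cufflinks 2.2.1 on mm10. Annotation release, read length and strandedness are not given in these sources. Cufflinks estimates how overlapping transcripts share fragments, so values of overlapping genes and near copies are uncertain.

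From 55483 rows, those sharing a symbol were summed to 55363 genes, and ratios were taken on FPKM + 1, which understates changes of low genes. A gene counted as measured when either library reached 1 FPKM (16263), and as higher or lower at a log2 ratio of at least 1 in size, with no test. Depth was fitted on single-transcript genes of at least 2000 nt, as the value at which FPKM times length, less an offset, comes nearest to whole fragments. The f/f library came to 19850000 fragments and the d/d library to 23200000 with an offset of 300 nt, where 88.9% of 778 and 86.6% of 793 low values were whole within 0.1. Intervals on ratios are approximate 95% Poisson intervals from the resulting fragment numbers and cover counting error only.

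The members and lists were chosen with earlier results of these data known. Named were all members, the 3 genes nearest to Mettl14, neighbours of members past the rule, and from each related list those past it (up to 6) or the 2 most abundant. Marker genes, genes overlapping Mettl3 and Rbm15b, the reader genes under 1 FPKM, Polr2a and Gusb are named beyond this rule. Positions and transcripts come from GENCODE M21 on GRCm38, which held 55137 of the gene IDs. Alternatives were other pseudocounts, filters and scalings, a lowess correction for GC content and length, and the highest row of a symbol. Scripts ran on Python 3.11.15 with pandas 2.3.3 and statsmodels 0.14.6 and were tested on simulated data.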

Additional observations from a re-analysis of the deposited data

How the results depend on the processing

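With 1 library per genotype no library could be left out, and no paired analysis was possible because each genotype has a single library. Across 7 alternatives per member the sign held for 9 of the 10 members, and Zc3h13 turned under reference gene scaling. Mettl14 was past the 2-fold rule in all 7, between -2.05 with a pseudocount of 0.1 FPKM and -1.18 with one of 5 FPKM. That larger pseudocount left 0 members higher, while the smaller one and reference gene scaling each gave 2, Rbm15 and Rbm15b. Over the 16263 genes measured, 1652 were higher and 1346 lower in the main setting. The pseudocount of 5 FPKM lowered these counts to 869 and 539, since adding 5 FPKM shrinks the ratios of low genes. With the pseudocount of 0.1 FPKM they were 2037 and 1909. For reference gene scaling they were not taken. Taken on FPKM + 1, the Mettl14 to Mettl3 ratio in d/d was 0.268 in place of 0.218. Of 118 other comparisons with an alternative, 113 moved by less than their counting interval, or, for list medians, the standard deviation of the list divided by the root of its size. The 5 that moved more were Rbm15 and Rbm15b with the pseudocount of 5 FPKM, Rbm15b and Alkbh5 with reference gene scaling, and the T and NK cell list without a filter. The median log2 ratio of all genes moved by less than 0.1 under each scaling. By fragment numbers on the shortest coding transcripts, depth limits Cbll1 and the d/d value of Mettl14 most. The spread between animals is unknown for every value.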

Other observations

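Beside Prss12, 4 other neighbours of the 10 genes had the following values (chosen after their values were seen). Esrp1, an epithelial splicing regulator and the coding gene before Virma, was 4.64 in f/f and 24.6 FPKM in d/d. Rad54b, a recombination gene after Virma, was 6.88 and 4.06 FPKM. Rpgrip1l, a cilium gene on the opposite strand whose annotated span stops 262 bp before Fto, was 3.50 in f/f and 4.95 FPKM in d/d. Sod2, the mitochondrial superoxide dismutase gene next to Wtap, was 96.2 and 73.9 FPKM.

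Among the readers short of the 2-fold rule (also chosen after their values were seen), Ythdf3 was 26.2 in f/f and 50.9 FPKM in d/d, a log2 ratio of 0.93, and Ythdc1, the nuclear reader, was 30.8 and 55.2 FPKM, a log2 ratio of 0.82.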
